A study of Mus musculus with 9 samples.

Results

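Meis1, Pbx3, Hlf and Mllt3 encode 4 regulators of transcription that are tied to self-renewal of blood stem cells. They were chosen by gene symbol, with earlier results of these data known. Every row of the deposited transcript table with one of these symbols was taken, which gave 29 of 58094 listed transcripts and 4 of 20635 gene symbols. RNA-seq had been run on bone marrow cells from the femurs and tibias of C57BL/6J mice aged 10 weeks, stained for c-Kit, Sca-1, lineage markers, CD34 and Syndecan-2 and sorted at 10000 cells per library. All 9 libraries come from the KSL CD34- gate, cells positive for c-Kit and Sca-1 and negative for lineage markers and CD34, in which mouse stem cells are enriched. Parent is that whole gate, Syndecan-2+ and Syndecan-2- are the parts of it that carry or lack Syndecan-2, a proteoglycan of the cell surface, and each population has 3 libraries. The labels name no genotype, transgene or treatment. They give male mice in the protocol and mixed gender in the series design, and do not say whether the libraries are from separate animals, and the p-values below cover only variation among these libraries, which can be technical.

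Meis1 and Pbx3 belong to the TALE homeodomain family, whose members bind DNA with each other and with HOX proteins. Meis1 is needed to keep mouse stem cells at rest and in number, and with HOXA9 and PBX3 it drives leukaemia. Hlf, a PAR bZIP transcription factor first known from a leukaemia fusion, is used as a marker of stem cells and acts in their quiescence. Mllt3, also called AF9, reads acetylated histones through its YEATS domain and brings elongation factors and DOT1L to active genes. In human blood stem cells it keeps self-renewal in culture.

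Values are CPM, reads scaled to a common total (a unit read from the values, since the table names none), summed over the transcripts of a gene and given as mean ± SD with n = 3 libraries. Judged by the most frequent low value in each library, taken as 1 read, 1 CPM corresponds to 15.5 to 20.6 reads. A level of 3 reads is then 0.146 to 0.194 CPM, a limit of detection for counting error alone. Tests are limma on log2(CPM + 1), fitted over all 13997 genes or 31579 transcripts with at least 1 CPM in at least 3 libraries, and "rose", "fell" and "called" mean a Benjamini-Hochberg adjusted p under 0.05. Fold changes on this scale are understated for low genes. Sdc2, which encodes the sorted protein, stood at 0.203 to 0.477 CPM in Syndecan-2- libraries, 1.43 to 2.00 in Parent and 4.17 to 5.23 in Syndecan-2+. Of the gate's defining genes, Kit was at 155 to 178 CPM in Syndecan-2- and 240.1 to 273 CPM in Syndecan-2+ libraries, and Ly6a, the Sca-1 gene, at 4.47 to 8.54 CPM in all 9. Cd34 RNA was at 170 to 178 CPM in Parent, 190 to 211 CPM in Syndecan-2- and 37.6 to 50.1 CPM in Syndecan-2+ libraries, although the gate is negative for the CD34 protein. Of 10 gate, stem cell and progenitor markers, Kit, Procr, Slamf1, Mecom, Fgd5 and Vwf were called higher and Cd34, Flt3 and Cd48 lower between the sorted parts, taking Syndecan-2+ over Syndecan-2-, where 20.5% of all genes were called higher and 9.51% lower. Their part in the results below was not tested. In bulk samples, fewer cells of a type and less RNA per cell cannot be told apart.

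All 4 genes rose from Syndecan-2- to Syndecan-2+ cells, from 1.92-fold for Meis1 to 4.38-fold for Mllt3. Over all tested genes, 20.5% were called higher and 29.5% had every Syndecan-2+ library above every Syndecan-2- library, which are the shares to set beside 4 of 4. The genes were chosen with earlier results of these data known, so 4 of 4 is a description and not independent support. All 4 were also called higher in Syndecan-2+ than in Parent, where 9.90% of all genes were called higher and 19.5% had every Syndecan-2+ library above every Parent library. Meis1, Hlf and Mllt3 were called lower in Syndecan-2- than in Parent, against 2.54% of all genes called lower. In each of the 4 genes the 3 Syndecan-2- libraries were below all 3 Parent libraries, as for 14.0% of all genes. Syndecan-2+ minus Syndecan-2- had a median log2 difference of 0.10 over all genes, with 2874 called higher and 1331 lower. TMM rescaling gave 2039 and 1925 with a median of 0.00, and quantile normalization 1995 and 1873 with a median of -0.01, so differences of about 0.1 depend on the scaling. The 3 comparisons share libraries, so their calls are not independent of one another.

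**Figure D1:**
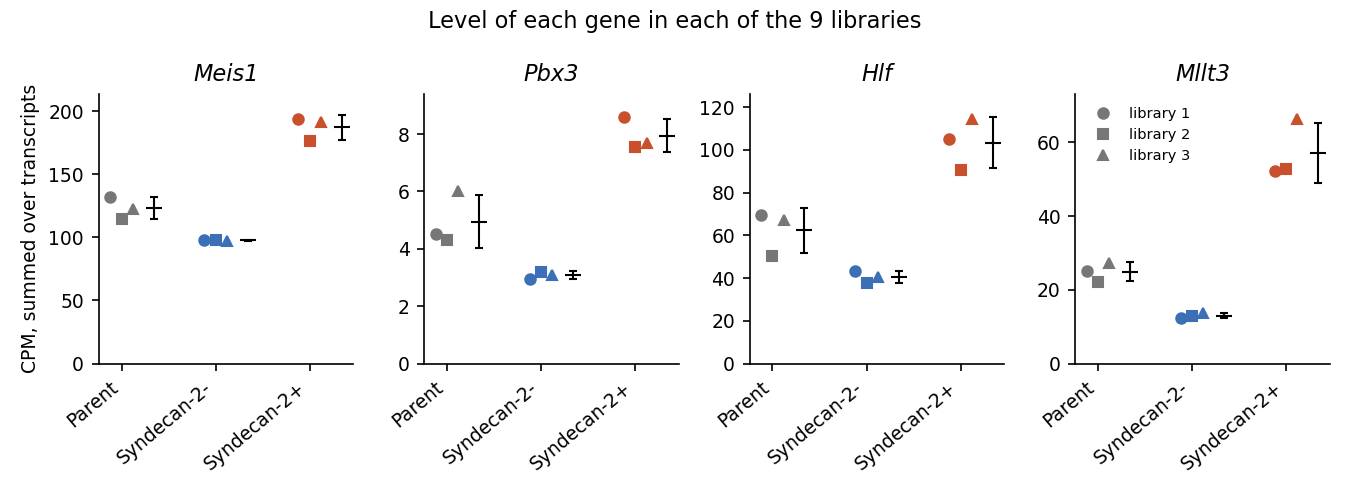
CPM of Meis1, Pbx3, Hlf and Mllt3 (vertical axes from 0) in the 3 libraries of each population; the symbol gives the library number and the bar the mean and SD. In each gene the Syndecan-2+ libraries are highest, the Syndecan-2- libraries lowest and the Parent libraries between them, without overlap.

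Meis1 (ENSMUSG00000020160, GRCm38 chromosome 11, 18879817 to 19018985, minus strand) encodes the DNA-binding partner of PBX and HOX proteins. It stood at 132, 114 and 123 CPM in Parent libraries 1 to 3, at 98.0, 97.8 and 97.2 CPM in Syndecan-2- and at 194, 176 and 192 CPM in Syndecan-2+ libraries. The 3 populations did not overlap, and the Syndecan-2- libraries lay close together, with an SD of 0.415 CPM. Meis1 rose from 97.7 ± 0.415 to 187 ± 9.68 CPM between the sorted parts (log2 difference 0.93, SE 0.07, adjusted p = 1.22e-08). It rose 1.52-fold over Parent (log2 0.60, adjusted p = 5.56e-06). It was lower in Syndecan-2- than in Parent by a small step (log2 -0.33, adjusted p = 0.0114), a call that was lost without Parent library 1 (adjusted p = 0.0877).

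Of the 9 listed Meis1 transcripts, 8 passed the filter, and all 8 had positive log2 differences between the sorted parts. The median over all tested transcripts was 0.07. The leading one, Meis1-001, is protein coding with 390 codons and stood at 42.0, 32.6 and 46.2 CPM in Parent, 41.1, 34.5 and 41.0 CPM in Syndecan-2- and 84.2, 69.9 and 96.1 CPM in Syndecan-2+ libraries. Here Parent and Syndecan-2- overlapped and the Syndecan-2+ libraries stood above both. Meis1-001 rose over Syndecan-2- (log2 1.07, SE 0.15, adjusted p = 0.00120) and over Parent (log2 1.03, adjusted p = 0.00367), and its difference between Syndecan-2- and Parent was -0.04 (adjusted p = 0.976). Meis1-008 (log2 0.87), Meis1-201 (log2 1.03) and the retained-intron transcript Meis1-002 (log2 0.67) were also called higher between the sorted parts. Meis1-008 lost its call without Syndecan-2+ library 2 (adjusted p = 0.0515). Meis1-201 lost it in the absence of Syndecan-2- library 1 or 2 and of each Syndecan-2+ library in turn (adjusted p from 0.0669 to 0.109). Meis1-002 lost it with the replicate block (adjusted p = 0.0707), with TMM rescaling (0.0766) and in 8 of the 9 fits without 1 library, all but that without Syndecan-2- library 2 (adjusted p up to 0.169). Meis1-003, -004, -005 and -007 had log2 differences of 0.39, 1.22, 0.87 and 1.08 and were not called, but Meis1-005 was with the replicate block (adjusted p = 0.0201), Meis1-007 without Parent library 1 (0.0356) or 2 (0.0155) and Meis1-004 without Parent library 3 (0.0299).

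Meis1-001 and Meis1-201 share their first 371 codons and then end differently, after 19 and 94 codons of their own, so the pair differs at the carboxyl end of the protein. The spliced coding bases 1105 to 1164 of each model (GENCODE, GRCm38, chromosome 11, minus strand) are shown because they hold the split. Capitals begin at the first codon that differs between the models, although its first bases, GG, are the same in both.
Meis1-001, chr11:18884033-18884396: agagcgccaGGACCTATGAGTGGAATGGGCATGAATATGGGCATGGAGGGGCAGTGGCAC
Meis1-201, chr11:18881873-18884396: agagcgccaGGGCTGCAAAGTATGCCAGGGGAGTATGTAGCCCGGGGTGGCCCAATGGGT
Meis1-201 stood at 2.42 ± 0.625 CPM in Syndecan-2- and 5.94 ± 0.696 CPM in Syndecan-2+ libraries, 2.48 ± 0.652% and 3.17 ± 0.318% of all Meis1 CPM. Retained-intron transcripts (Meis1-002 and -003) held 34.7 ± 6.14% of Meis1 CPM in Syndecan-2- and 26.5 ± 5.44% in Syndecan-2+ libraries, and these shares overlapped. Within the Meis1 locus the table lists 5 further genes, 3 on its own strand and 2 antisense, at 0.684 to 13.2 CPM. Whether the counting used strand is not given in the sources used here, so reads of Meis1 and these genes may not be fully told apart.

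Pbx3 (ENSMUSG00000038718, GRCm38 chromosome 2, 34171457 to 34372044, minus strand) encodes a TALE partner of MEIS and HOX proteins. It was the lowest of the 4, at 4.52, 4.29 and 6.00 CPM in Parent, 2.94, 3.20 and 3.10 CPM in Syndecan-2- and 8.60, 7.54 and 7.68 CPM in Syndecan-2+ libraries. The populations did not overlap, and Parent library 3 was the one nearest to Syndecan-2+. Pbx3 rose from 3.08 ± 0.131 to 7.94 ± 0.575 CPM between the sorted parts (2.58-fold, log2 1.13, SE 0.15, adjusted p = 2.10e-05). Its rise over Parent (log2 0.60, adjusted p = 0.0114) was lost without Parent library 2 (adjusted p = 0.0552) and without Syndecan-2+ library 1 (0.0577). The difference between Syndecan-2- and Parent (log2 -0.53, SE 0.15) was not called (adjusted p = 0.0938).

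None of the 3 Pbx3 transcripts that passed the filter was called in limma between the sorted parts (2 had an unadjusted p under 0.05), and 4 of its 7 transcripts were too low to test. The leading one, Pbx3-002, stood at 2.03, 1.79 and 3.56 CPM in Parent, 1.48, 1.46 and 1.83 CPM in Syndecan-2- and 3.86, 2.87 and 3.89 CPM in Syndecan-2+ libraries (log2 between the sorted parts 0.80, adjusted p = 0.0917). Pbx3-001 stood at 2.74, 1.92 and 0.269 CPM in Syndecan-2+ libraries and at or below 0.0315 CPM in Syndecan-2- libraries, under the level of 3 reads (log2 1.25, adjusted p = 0.112). Without Syndecan-2+ library 3, where it was lowest, it was called (log2 1.71, adjusted p = 0.0285). The retained-intron transcript Pbx3-005 had a log2 difference of 0.26 (adjusted p = 0.636). Pbx3-001, with 434 codons, and Pbx3-002, with 351, are the long and short forms known as PBX3A and PBX3B and share their first 337 codons. The spliced coding bases from 1003 on (GENCODE, GRCm38, chromosome 2, minus strand) are shown with capitals for the bases after the split, up to base 1062 and to the last coding base of the short form.
Pbx3-001, chr2:34176809-34178183: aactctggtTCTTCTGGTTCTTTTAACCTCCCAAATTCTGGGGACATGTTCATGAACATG
Pbx3-002, chr2:34175911-34178183: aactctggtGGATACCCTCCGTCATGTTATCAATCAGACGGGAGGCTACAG
The short form ends after 14 codons of its own, while the long form goes on for 97.

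Hlf (ENSMUSG00000003949, GRCm38 chromosome 11, 90336536 to 90390895, minus strand) encodes the PAR bZIP factor of stem cell quiescence. It stood at 69.6, 50.2 and 67.2 CPM in Parent, 43.2, 37.5 and 40.4 CPM in Syndecan-2- and 105, 90.5 and 114 CPM in Syndecan-2+ libraries. The populations did not overlap, and library 2 was the lowest of each. Heat-shock genes were high in the same libraries: Hspa1a, an inducible chaperone, stood at 1800 to 2641 CPM in the number 2 libraries and at 21.5 to 365 CPM in the others. Hlf rose from 40.4 ± 2.83 to 103 ± 12.0 CPM between the sorted parts (2.56-fold, log2 1.33, SE 0.11, adjusted p = 6.06e-08), and with the 3 number 2 libraries left out the log2 difference was 1.37 (adjusted p = 1.14e-08). It rose 1.66-fold over Parent (log2 0.73, adjusted p = 1.31e-04) and was lower in Syndecan-2- than in Parent (log2 -0.60, adjusted p = 0.00486).

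All 5 listed Hlf transcripts passed the filter. Hlf-001, the complete coding form with 295 codons, stood at 53.4, 36.1 and 50.2 CPM in Parent, 31.8, 25.4 and 30.1 CPM in Syndecan-2- and 75.5, 65.1 and 84.0 CPM in Syndecan-2+ libraries. It rose between the sorted parts (log2 1.33, SE 0.15, adjusted p = 3.67e-04). Its rise over Parent (log2 0.68, adjusted p = 0.0406) was lost in 6 of the 9 fits without 1 library (adjusted p from 0.0523 to 0.156), when Parent 2 or 3, Syndecan-2- 1 or 3 or Syndecan-2+ 1 or 3 was left out. Its difference between Syndecan-2- and Parent (log2 -0.65, adjusted p = 0.215) was called only with the replicate block (adjusted p = 0.0479). Hlf-003 (log2 1.34) and Hlf-006 (log2 0.94) were also called between the sorted parts. Hlf-003 lost its call without Syndecan-2- library 1 (adjusted p = 0.0575) or Syndecan-2+ library 3 (0.0564), and Hlf-006 when Syndecan-2- 2 or 3 or Syndecan-2+ 1 or 2 was left out (0.0650 to 0.0899). Hlf-002 (log2 1.35, SE 0.53) and Hlf-005 (log2 0.08, SE 0.31) were not called.

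Mllt3 (ENSMUSG00000028496, GRCm38 chromosome 4, 87769925 to 88033364, minus strand) had the largest difference of the 4. It stood at 25.2, 22.2 and 27.3 CPM in Parent, 12.4, 13.0 and 13.7 CPM in Syndecan-2- and 52.2, 52.7 and 66.4 CPM in Syndecan-2+ libraries. The populations did not overlap, and the Syndecan-2+ libraries stood clearly apart from the other 6. Mllt3 rose from 13.0 ± 0.669 to 57.1 ± 8.07 CPM between the sorted parts (4.38-fold, log2 2.04, SE 0.10, adjusted p = 1.65e-10). It rose 2.29-fold over Parent (log2 1.16, adjusted p = 4.49e-07), and Parent was 1.91-fold above Syndecan-2- (log2 of Syndecan-2- minus Parent -0.88, adjusted p = 7.12e-05). Syndecan-2+ library 3, the highest, was also the highest in stromal collagen RNA: Col1a1 was at 21.0 CPM there and at 0 to 0.162 CPM in the others, and Col1a2 at 15.5 CPM there, 2.07 and 2.38 CPM in the other Syndecan-2+ libraries and 0.0508 to 0.913 CPM elsewhere. Without it the log2 difference of Mllt3 between the sorted parts was 1.93 (adjusted p = 7.40e-10).

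The 8 listed Mllt3 transcripts come from different starts. Mllt3-001 begins at the upstream start, base 88033364, and holds the full coding sequence of 569 codons, including the YEATS domain at the amino end. Mllt3-002, -003 and -010 begin at an internal start within the gene, at base 87806323 for Mllt3-002, and the coding sequence of Mllt3-002, 162 codons in the same frame, is the end of that of Mllt3-001, where the region that binds elongation factors and DOT1L lies. The first 60 coding bases of each (GENCODE, GRCm38, chromosome 4, minus strand) are shown with the start codon in capitals, since they mark where the long and the short reading frames begin.
Mllt3-001, chr4:88031657-88033095: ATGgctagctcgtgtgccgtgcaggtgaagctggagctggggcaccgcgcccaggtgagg
Mllt3-002, chr4:87791906-87791965: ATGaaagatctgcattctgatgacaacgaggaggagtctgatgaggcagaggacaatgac

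Mllt3-001 stood at 8.51, 8.84 and 10.2 CPM in Parent, 4.24, 3.52 and 4.98 CPM in Syndecan-2- and 22.5, 18.2 and 26.9 CPM in Syndecan-2+ libraries. Mllt3-002 stood at 4.50, 5.27 and 7.45 CPM in Parent, 3.04, 2.46 and 3.11 CPM in Syndecan-2- and 12.6, 12.4 and 18.5 CPM in Syndecan-2+ libraries. In both, the populations did not overlap. Mllt3-001 rose between the sorted parts (log2 2.16, SE 0.18, adjusted p = 3.82e-05) and over Parent (log2 1.20, adjusted p = 0.00437). Mllt3-002 rose between the sorted parts (log2 1.98, SE 0.22, adjusted p = 3.00e-04) and over Parent (log2 1.20, adjusted p = 0.0145), the latter lost without Parent library 1 (0.0558) or 2 (0.0566) or Syndecan-2+ library 3 (0.0686). The retained-intron transcript Mllt3-005 was called between the sorted parts (log2 1.07), but not without Syndecan-2- library 2 (adjusted p = 0.0518) or Syndecan-2+ library 2 (0.0588). Mllt3-003, -006, -007 and -010 had log2 differences of 1.24, 1.34, 0.94 and 1.31 and were not called, but Mllt3-006 was with the replicate block (adjusted p = 0.0401) and without Syndecan-2- library 2 (0.0317), and Mllt3-010 without Parent library 3 (0.0367).

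The 3 protein-coding transcripts from the internal start summed to 7.83 ± 1.29 CPM in Parent, 3.66 ± 0.771 CPM in Syndecan-2- and 19.6 ± 5.29 CPM in Syndecan-2+ libraries. They held 31.3 ± 2.75%, 28.0 ± 4.85% and 33.9 ± 4.20% of Mllt3 CPM, and these shares overlapped between populations. The 4 transcripts that begin at or near the upstream start, between bases 88032813 and 88033364, summed to 14.8 ± 1.05, 7.78 ± 0.335 and 33.6 ± 3.79 CPM. Per kb of transcript the order was the other way: the internal start gave 24.0 ± 5.03 CPM per kb and the upstream ones 9.41 ± 0.884 CPM per kb in Syndecan-2+ libraries, 4.09 ± 0.606 and 2.26 ± 0.401 in Syndecan-2-, and 10.2 ± 1.09 and 3.97 ± 0.456 in Parent. In all 9 libraries the internal start was the higher one per kb. Mllt3-002 has 113 bases of its own among its 794, the rest being shared with Mllt3-001, and the program that divided shared reads is not given in the sources used here.

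**Figure D2:**
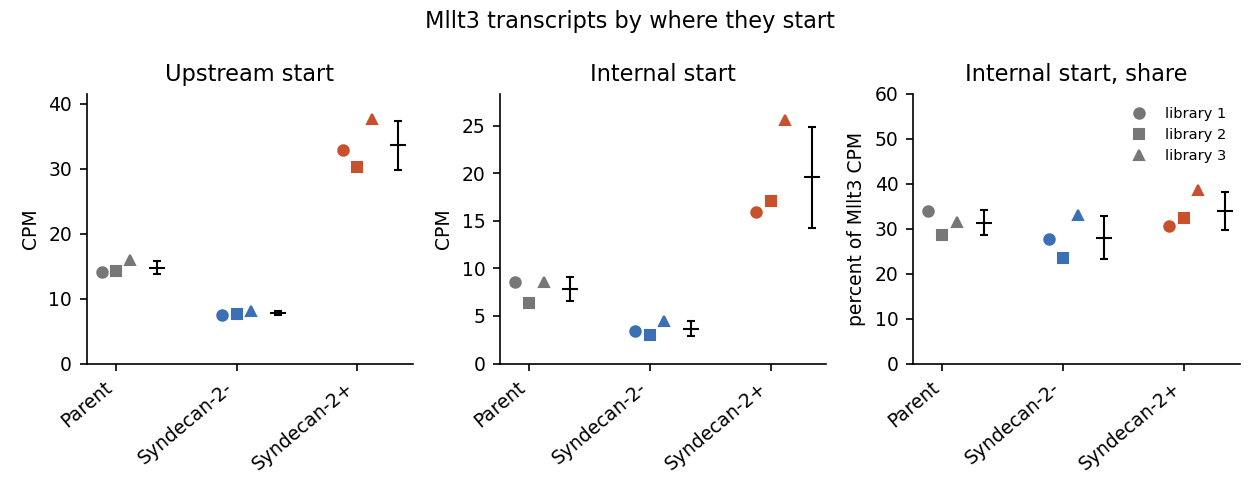
Summed CPM of the Mllt3 transcripts that begin at or near the upstream start (left) and of the protein-coding ones from the internal start (middle), and the latter as a percent of all Mllt3 CPM (right), per library with mean and SD. Both starts are highest in the 3 Syndecan-2+ libraries, while the share of the internal start overlaps between populations.

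Promoter sequences from RefSeq (GRCm38.p6) were matched for both Mllt3 starts, Meis1 and Hlf, and not for Pbx3. The 250 bases before each start are shown because the 4 genes moved together and the starts of Mllt3 differ in composition, with capitals for motif matches (minus strand, read 5′ to 3′).
Mllt3 upstream start, chr4:88033408-88033657: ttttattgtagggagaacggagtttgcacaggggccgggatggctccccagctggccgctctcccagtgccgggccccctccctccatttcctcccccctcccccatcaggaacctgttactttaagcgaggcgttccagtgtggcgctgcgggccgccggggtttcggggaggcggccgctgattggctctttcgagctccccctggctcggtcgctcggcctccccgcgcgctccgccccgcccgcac
Mllt3 internal start, chr4:87806324-87806573: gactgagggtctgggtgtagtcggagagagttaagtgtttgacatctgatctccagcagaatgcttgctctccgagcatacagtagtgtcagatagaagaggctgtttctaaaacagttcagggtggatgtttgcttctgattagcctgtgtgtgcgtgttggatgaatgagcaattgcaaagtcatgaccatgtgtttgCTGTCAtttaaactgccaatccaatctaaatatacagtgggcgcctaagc
Meis1, chr11:19018970-19019219: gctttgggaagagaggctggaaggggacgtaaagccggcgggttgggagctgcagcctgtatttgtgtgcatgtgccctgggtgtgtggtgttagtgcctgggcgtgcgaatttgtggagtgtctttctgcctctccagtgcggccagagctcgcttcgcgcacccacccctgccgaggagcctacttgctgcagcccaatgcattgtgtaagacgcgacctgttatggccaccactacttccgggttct
Hlf, chr11:90390918-90391167: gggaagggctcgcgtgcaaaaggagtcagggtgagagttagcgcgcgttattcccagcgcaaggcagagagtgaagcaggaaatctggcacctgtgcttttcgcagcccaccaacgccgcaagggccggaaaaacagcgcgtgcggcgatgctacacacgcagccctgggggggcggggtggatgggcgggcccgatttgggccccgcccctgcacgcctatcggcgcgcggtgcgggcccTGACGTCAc
The upstream Mllt3 start has a GC content of 69.2% and 23 CpG, the internal one 45.2% and 4 CpG, Meis1 59.6% and 13, and Hlf 67.2% and 26, against medians of 52.4% and 6 over 32851 RefSeq promoters of the same length. Of 6 strings searched on both strands, 2 matched: the MEIS string TGACAG, on the other strand and so printed as its reverse complement, lay 50 bases before the internal Mllt3 start, and a CRE string TGACGTCA 9 bases before that of Hlf. TGACAG is in 15.9% of all these promoters and TGACGTCA in 1.55%. The other strings were TGATNNAT (PBX with HOX, in 7.68%), TTACNTAA (HLF, 2.06%), the GATA string AGATAA, counted together with its variant TGATAA (16.6%), and CAGGAAGT (ETS, 2.69%), where the PBX and GATA strings can overlap. A match here is a description of the letters and not of binding. Only these strings were searched, so other forms of the same sites stay in lower case and their absence is not shown.

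Over the 4 genes, 23 of 29 transcripts were tested. Between the sorted parts all 23 had positive log2 differences, where the median over all tested transcripts was 0.07. Pbx3-001, Pbx3-005 and Mllt3-010 passed the filter only with the help of Syndecan-2+ libraries, where their means were highest. The filter itself favours a positive sign for them, so their signs add no support. Of the 23, 10 were called higher, against 4.93% of all tested transcripts called higher, where TMM rescaling gave 1274 higher and 1273 lower over all transcripts in place of 1556 and 977. The 23 belong to 4 genes already called higher and divide shared reads, so they are not 23 separate results. The calls of Meis1-001, Hlf-001, Mllt3-001 and Mllt3-002 held in all 13 alternative settings run for transcripts. The other 6 were lost in 2 to 10 of them. Without Syndecan-2+ library 2, 5 of the 23 were called, and with number 2 of all populations left out, 6. Over Parent, 4 were called higher (Meis1-001, Hlf-001, Mllt3-001 and Mllt3-002), against 1.32% of all, and 2 were called without Parent library 2 or without Syndecan-2+ library 3. Between Syndecan-2- and Parent limma called 0 of the 23, where 0.130% of all transcripts were called lower, and 7 had an unadjusted p under 0.05, all lower in Syndecan-2-. The share of all transcripts under that unadjusted p is not given here.

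**Figure D3:**
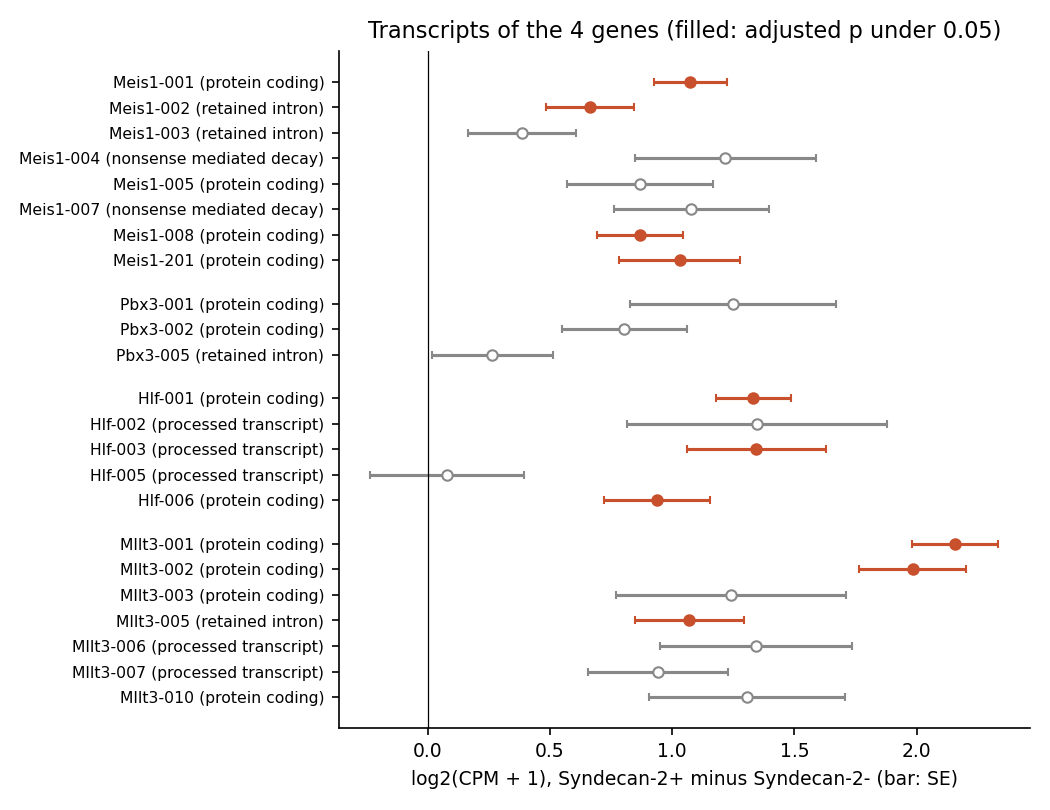
Log2 difference of CPM + 1 (Syndecan-2+ minus Syndecan-2-, bars are the SE) of the 23 tested transcripts, filled where the adjusted p is under 0.05. All 23 points lie to the right of 0, and Mllt3-001 and Mllt3-002 lie farthest to the right. Pbx3-001, Pbx3-005 and Mllt3-010 passed the filter only with the help of Syndecan-2+ libraries.

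The share of each gene's CPM in its leading transcript overlapped between the sorted parts. Meis1-001 held 39.8 ± 3.90% of Meis1 CPM in Syndecan-2- and 44.4 ± 5.30% in Syndecan-2+ libraries (two-sided exact permutation p = 0.4). Pbx3-002 held 51.7 ± 6.95% and 44.6 ± 6.32% of Pbx3 CPM (exact p = 0.3), and Hlf-001 71.9 ± 3.58% and 72.4 ± 0.893% of Hlf CPM (exact p = 1). For Mllt3-001 the shares were 32.6 ± 4.92% and 39.4 ± 4.32% (exact p = 0.2). Over the 4 comparisons the adjusted p was 0.533 or above, and 3 libraries against 3 cannot give an exact p below 0.1, so these p-values do not show that the shares were alike. For Pbx3 all protein-coding transcripts together held 54.9 ± 4.28% in Syndecan-2- and 68.8 ± 9.05% in Syndecan-2+ libraries, without overlap (exact p = 0.1), while the Parent libraries, at 46.6 to 71.8%, spanned both. The same shares overlapped for Meis1 (exact p = 0.4), Hlf (0.7) and Mllt3 (0.2).

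By mean CPM the 4 genes rose by different factors, apart from Hlf (2.56-fold) and Pbx3 (2.58-fold), which were close. Within a library, the ratio of Mllt3 to Meis1 CPM was 0.126, 0.133 and 0.141 in Syndecan-2- and 0.269, 0.299 and 0.347 in Syndecan-2+ libraries, a log2 difference of 1.19. The ratio of Mllt3 to Hlf differed by 0.77 and that of Mllt3 to Pbx3 by 0.76 on the log2 scale, with no overlap between the sorted parts in either. Hlf to Meis1 differed by 0.41 and Pbx3 to Meis1 by 0.43, also without overlap. For each of these 5 the exact two-sided permutation test gave p = 0.1, which is as low as it can go here (0.12 adjusted over the 6 pairs). These differences in ratio are therefore described and not called. The 6 pairs are built from 4 genes, so they are not separate results. Hlf to Pbx3, at 13.2 ± 1.48 in Syndecan-2- and 13.0 ± 1.61 in Syndecan-2+ libraries, overlapped (log2 difference -0.01, exact p = 1).

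**Figure D4:**
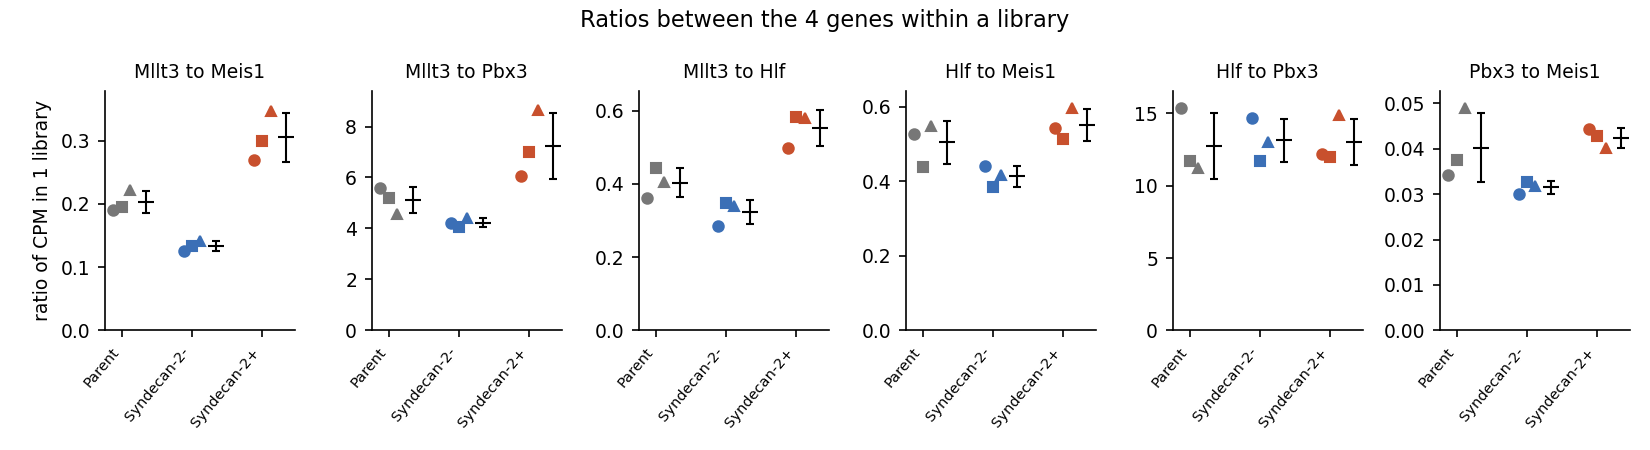
Ratio of the CPM of 2 of the genes within each library (vertical axes from 0), with mean and SD per population. The Syndecan-2+ libraries lie above all Syndecan-2- libraries in 5 of the 6 pairs, and Hlf to Pbx3 overlaps.

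Per kb of transcript, which takes length into account, the order in Syndecan-2+ libraries was Meis1 (63.6 ± 2.45 CPM per kb), Hlf (36.0 ± 1.33), Mllt3 (34.7 ± 5.75) and Pbx3 (4.18 ± 0.513). Hlf and Mllt3 overlapped there, but short models weigh heavily in these sums. Mllt3-002, of 794 bases, gave 18.3 ± 4.35 and the incomplete Hlf-006, of 619 bases, 13.3 ± 2.22 CPM per kb. The full coding forms Meis1-001, Hlf-001 and Mllt3-001 stood at 26.1 ± 4.11, 13.3 ± 1.68 and 3.71 ± 0.714 CPM per kb in the same libraries. In Syndecan-2- libraries Meis1 stood at 33.3 ± 0.519, Hlf at 15.7 ± 2.24, Mllt3 at 6.85 ± 0.306 and Pbx3 at 1.54 ± 0.0330 CPM per kb. In Parent they stood at 41.2 ± 4.52, 21.9 ± 1.90, 14.9 ± 0.817 and 3.12 ± 0.941. In these 2 populations no neighbours in the order overlapped.

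Parent lay between the sorted parts for each gene, nearer to Syndecan-2-. On the CPM scale its distance from Syndecan-2- was 28.3 ± 9.93% of the way to Syndecan-2+ for Meis1, 38.2 ± 19.1% for Pbx3, 34.9 ± 16.9% for Hlf and 27.0 ± 5.80% for Mllt3 (SD over the 3 Parent libraries). The gene of the sorted protein, Sdc2, lay at 33.3 ± 6.82%, within the range of the 4 on this scale. Single Parent libraries ran from 15.5% (Hlf, library 2) to 60.1% (Pbx3, library 3). No test was made of these positions. On the log2 scale Parent lay at 35.2% for Meis1, 46.9% for Pbx3, 45.2% for Hlf and 43.2% for Mllt3. Sdc2 then lay above the 4 and past the middle. Its log2 difference was -1.04 for Syndecan-2- minus Parent and 1.02 for Syndecan-2+ minus Parent.

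The TALE family list is given in part. Tgif1, a TALE repressor of TGF-beta signalling, fell (log2 -0.93, adjusted p = 3.72e-06), where 9.51% of all genes were called lower. The paralogs Pbx2 (log2 0.14) and Pbx4 (0.03) and the related Pknox1 (0.09) and Tgif2 (-0.03) were not called. Pbxip1, which encodes a PBX-binding protein, had a log2 difference of -0.27 (adjusted p = 0.155) and was called lower with the replicate block (0.0184), with TMM rescaling (0.0305) or quantile normalization (0.0264) and without Syndecan-2- library 2. Meis3 was at 0.180 to 1.87 CPM and not tested, and the list's Meis2 and Pknox2 have no row in the table. No count is drawn from the family as a whole.

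No other gene of the Hlf family list was called between the sorted parts. The PAR bZIP paralogs Dbp (log2 -0.16) and Tef (-0.07) were not called, and limma called 0 of the 3 tested relatives between the sorted parts (1 had an unadjusted p under 0.05, lower). That was Nfil3, a repressor at the same DNA sites (log2 -0.39, adjusted p = 0.0576), which was called lower with TMM rescaling (adjusted p = 0.0229) and quantile normalization (0.00863). Against Parent, Nfil3 was called lower in Syndecan-2+ libraries (log2 -0.49, adjusted p = 0.0325), a call lost when any one Parent or Syndecan-2+ library was left out (adjusted p up to 0.130) and with number 2 of all populations left out (0.158).

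Of 13 tested partners of Mllt3 in transcription elongation, 3 rose, 1 fell and 9 were not called, with a median log2 difference of 0.09 (with TMM rescaling 1 rose and 1 fell). These counts are near the shares of all genes, 20.5% called higher and 9.51% lower. Ell2, an elongation factor of the super elongation complex, rose from 3.31 to 3.76 CPM in Syndecan-2- to 11.8 to 14.3 CPM in Syndecan-2+ libraries (log2 1.65, adjusted p = 5.81e-08). Aff4, the scaffold of that complex (log2 0.27, adjusted p = 0.00366), and Ell (log2 0.36, adjusted p = 0.0102) rose, and neither was called with TMM rescaling (0.0666 and 0.0676). Aff3, a related scaffold, fell (log2 -0.60, adjusted p = 1.38e-06). The paralog Mllt1 (log2 -0.10), the histone methyltransferase Dot1l (0.00) and the kinase Cdk9 (0.01) were not called. Of 7 genes of the Kmt2a complex, which places the histone mark of active promoters, Psip1 (log2 0.37), Wdr5 (0.27) and Kmt2a (0.23) rose and 4 were not called, where 20.5% of all genes were called higher. With TMM rescaling only Psip1 of these 7 was called, and Kmt2a lost its call when Syndecan-2- 3 or Syndecan-2+ 1 or 3 was left out (adjusted p up to 0.0730).

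Hlf and Meis1 are among the factors that, given together, turn mouse blood progenitors into transplantable stem cells, a list also given in part. Of its other factors reported here 3 were tested and rose: Runx1t1 (log2 2.13, adjusted p = 5.44e-06), a corepressor, Mycn (log2 1.56, adjusted p = 2.52e-09), a proto-oncogene of the MYC family, and Lmo2 (log2 0.68, adjusted p = 4.69e-06), an adaptor of haematopoietic transcription complexes. Over all tested genes 20.5% were called higher. The list was chosen with earlier results of these data known, so this count is a description and not independent support. Runx1t1 was at 2.25, 3.15 and 5.87 CPM in Syndecan-2+ and at or near 0 in Syndecan-2- libraries (0, 0.0508 and 0.0526 CPM, under the level of 3 reads). In Parent it was at 0.615 to 1.49 CPM. Runx1t1 thus passed the filter only with the help of the Syndecan-2+ libraries, where it was high, so its call adds no support to the count. Mycn was at 67.2, 51.2 and 68.2 CPM in Syndecan-2+ and 19.7, 20.9 and 20.1 CPM in Syndecan-2- libraries. Zfp37, at 0 to 1.26 CPM, was not tested. All 3 were also called with TMM rescaling, quantile normalization and the replicate block.

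Another list holds genes known as targets of HOXA9 with MEIS1 or of MLL fusion proteins, in which Mllt3 is a frequent partner. Of 13 tested beside Meis1 and Pbx3, 1 rose, 7 fell and 5 were not called, with a median log2 difference of -0.27, beside 20.5% of all genes called higher, 9.51% called lower and a median of 0.10. Of the 7, Jmjd1c and Bcl2 lost their call without Syndecan-2- library 1 (adjusted p = 0.0524 and 0.0621), and Bcl2 with number 2 of all populations left out (0.0606). Hoxa10, a homeobox gene of the same cluster as Hoxa9, rose from 3.44 to 4.47 CPM in Syndecan-2- to 8.15 to 10.5 CPM in Syndecan-2+ libraries (log2 1.14, adjusted p = 1.95e-05). Hoxa9, the partner of MEIS1 and PBX3 in leukaemia, stood at 43.5 to 47.9 CPM in Syndecan-2- and 24.6 to 35.7 CPM in Syndecan-2+ libraries and fell (log2 -0.61, adjusted p = 2.11e-04). Flt3, the receptor of multipotent progenitors (log2 -3.75), Runx2 (log2 -0.81) and the cell cycle kinase Cdk6 (log2 -0.40) also fell. Myb, a regulator of progenitor growth, was not called (log2 0.03).

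Meis1 is known to raise Hif1a and Epas1 (Hif2a) in stem cells, which favour glycolysis. Of 8 genes of this list 3 rose, 1 fell and 4 were not called, beside 20.5% and 9.51% of all genes. With TMM rescaling or quantile normalization 2 rose. With number 2 of all populations left out 1 rose, but there Epas1 was too low to be tested. Epas1 was at 0.158 to 0.318 CPM in Syndecan-2-, 0.294 to 0.904 CPM in Parent and 1.12 to 2.09 CPM in Syndecan-2+ libraries (log2 1.14, adjusted p = 9.45e-04). It passed the filter only through the Syndecan-2+ libraries, where it was high, so its call adds no support to the count. Hif1a, at 26.2 to 32.4 CPM in all libraries, was not called (log2 -0.08). Ldha, lactate dehydrogenase, rose (log2 0.44, adjusted p = 1.39e-04), and Pdk1, a kinase that holds pyruvate from the mitochondria, fell (log2 -0.36, adjusted p = 0.00527). The glucose transporter gene Slc2a1 rose by 0.38 (adjusted p = 0.0335), but was not called with TMM rescaling (0.141), quantile normalization (0.242) or without any one Syndecan-2- library or Syndecan-2+ library 2 (adjusted p up to 0.180).

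**Figure D5:**
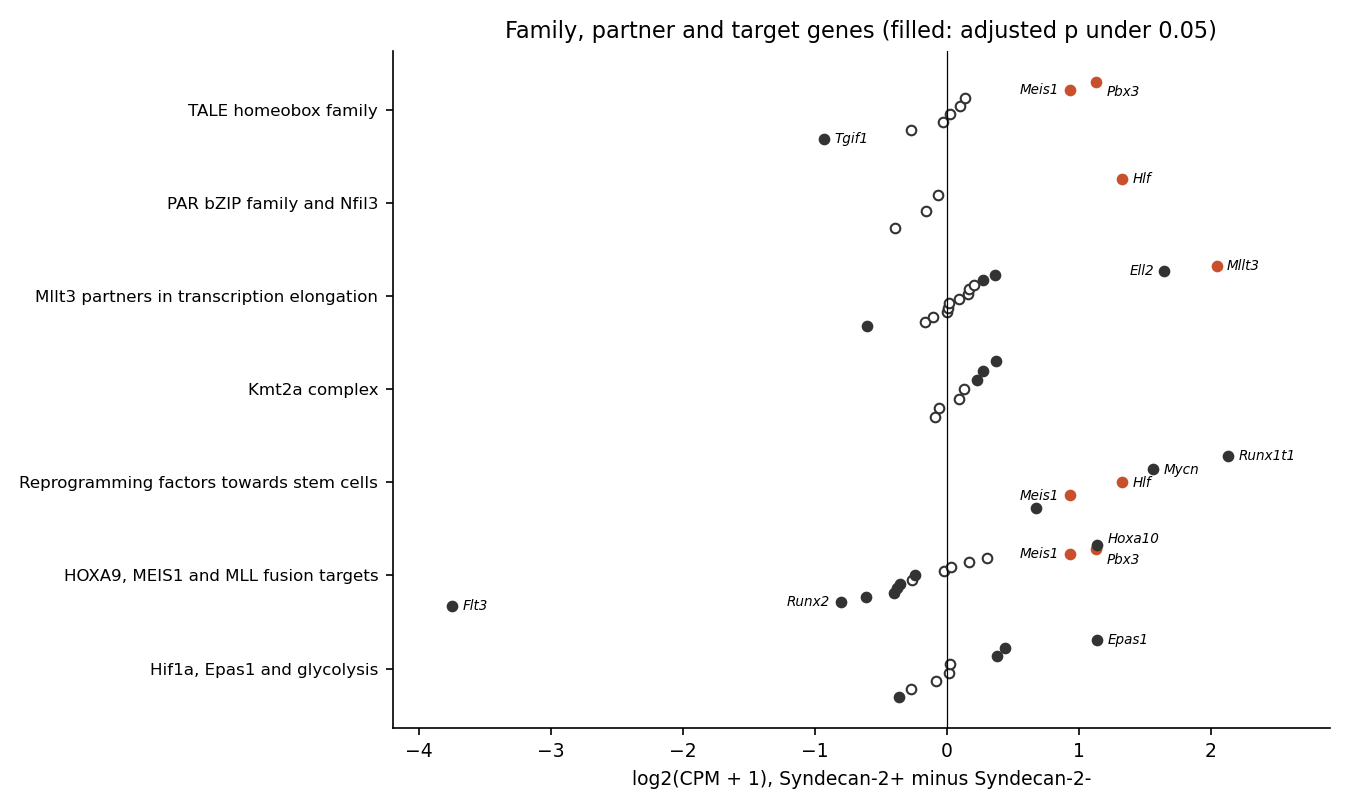
Log2 difference of CPM + 1 (Syndecan-2+ minus Syndecan-2-) of the tested genes reported from 7 lists, filled where the adjusted p is under 0.05, with Meis1, Pbx3, Hlf and Mllt3 in orange. The reprogramming factors shown lie to the right of 0 and the HOXA9, MEIS1 and MLL fusion targets mostly to the left, and Hlf and Mllt3 lie apart from most of their relatives.

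The genes with the most similar pattern were ranked by the root mean square difference in log2(CPM + 1), each gene centred on its mean over the 9 libraries, among 6744 genes with a mean of at least 10 CPM. Nearest to Meis1 were Nedd4, Mink1, Arhgap23, Adgrg1 and Prkcq (0.05 to 0.06). Adgrg1, the adhesion receptor GPR56 used as a stem cell marker, was at 358 to 388 CPM in Syndecan-2- and 640.3 to 742 CPM in Syndecan-2+ libraries. Among the nearest to Pbx3 were Kif1b, Gse1, Mllt4 and Epb4.1 (0.08 to 0.11), and nearest to Hlf were Slc12a2, Inf2, Nkx2-3, Crim1 and Eya2 (0.09 to 0.11). Nearest to Mllt3 were Itsn1, Serpina3g, Mecom, Myct1 and Prkg1 (0.10 to 0.13). Mecom, which encodes the stem cell factor EVI1, was at 12.5, 14.0 and 13.0 CPM in Syndecan-2- and 67.1, 61.9 and 75.9 CPM in Syndecan-2+ libraries. Among the 4 genes the values were 0.15 for Meis1 and Pbx3, 0.17 for Pbx3 and Hlf, 0.20 for Meis1 and Hlf and 0.32 to 0.47 for the pairs with Mllt3. This scale shrinks the differences of Pbx3, the lowest gene (log2 1.34 between the sorted parts with a pseudocount of 0.1, where Hlf had 1.35), so no order is read from the first 3. The libraries are shared by all these genes, and no test was made.

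Markers of some other cell types moved with the 4 genes and those of others mostly against them. Their counts stand beside 20.5% of all genes called higher and 9.51% called lower. Of 9 tested megakaryocyte and platelet genes, whose lineage also uses Meis1 and Mllt3, all rose, and the 11 listed ones summed to 76.5 to 88.2 CPM in Syndecan-2-, 144 to 173 in Parent and 371 to 409 in Syndecan-2+ libraries. Gp1bb, among the 9, passed the filter only with the help of the Syndecan-2+ libraries, where it was at 4.50 to 5.78 CPM. Itga2b, which stem cells also express, was at 148 to 156 CPM in Syndecan-2+ libraries, Pf4 was at 37.4 to 43.2 CPM in Syndecan-2+ and 4.21 to 6.09 CPM in Syndecan-2- libraries, and Ppbp was below 1 CPM in all 9. Of 4 tested erythroid genes all rose, with sums of the 10 listed of 73.2 to 91.8, 124 to 149 and 243 to 255 CPM in the same order, and the globin genes Hba-a1 and Hbb-bs were below 1 CPM in all 9 libraries. Of 9 tested plasma cell genes 7 rose and 1 fell (5 and 1 with TMM rescaling), with sums of 153 to 187, 363 to 422 and 1159 to 1445 CPM over the 11 listed, and Igha was at 0 in all 3 Syndecan-2- libraries. The gene that fell was Sdc1, at 14.4 to 18.8 CPM in Syndecan-2- and 3.36 to 4.90 CPM in Syndecan-2+ libraries. The largest parts of the Syndecan-2+ sums were the immunoglobulin genes Ighm, at 469 to 557 CPM, and Igkc, at 361 to 531 CPM. Prdm1, one of the 7, passed the filter only through the Syndecan-2+ libraries, where it was at 1.10 to 2.32 CPM. It lost its call without any one Syndecan-2- library (adjusted p up to 0.140). Irf4, also among the 7, lost its call in most fits without 1 library (adjusted p up to 0.254). Of 6 tested endothelial and stromal genes 4 rose and 1 fell, with sums of 64.7 to 71.8 CPM in Syndecan-2-, 65.8 to 71.5 in Parent and 67.0 to 99.99 in Syndecan-2+ libraries, the highest in library 3, and Cdh5 was below 1 CPM in all 9. Of 7 tested B, T and NK cell genes 0 rose in limma and 4 fell, and of 5 tested neutrophil and monocyte genes 1 rose and 3 fell. Sums of the former were 46.7 to 49.4 CPM in Syndecan-2- and 25.9 to 28.5 CPM in Syndecan-2+ libraries, and of the latter 91.1 to 93.1 and 57.9 to 70.4 CPM. The part of these cell types in the differences of Meis1, Pbx3, Hlf and Mllt3 was not tested.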

How the data were processed

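RNA-seq had been run on 9 libraries, 3 each of Parent, Syndecan-2- and Syndecan-2+ cells, grouped by the sorted population in the labels. The deposited table holds normalized values per transcript. They were taken as CPM, since the most frequent low value, that of 1 read, is shared by many transcripts of a library whatever their length, and the lowest value in the table, 0.0001, was taken as an offset. The genome build GRCm38 and the programs STAR and Bowtie2 come from the submitters' processing notes, and nothing used here states the counting program, its version or the denominator of the CPM. Listed transcripts summed to 51.5 to 54.5% of the CPM total, so a change in the rest of a library moves every listed value.

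The offset was subtracted and CPM were summed by gene symbol. Features with at least 1 CPM in at least 3 libraries were tested in limma 3.58.1 (R 4.3.3; eBayes with trend) on log2(CPM + 1), all 9 libraries in one fit, with Benjamini-Hochberg adjustment at 0.05. A count test had been foreseen for counts, but the values are not whole reads. Single shares and ratios were tested by two-sided exact permutation (SciPy 1.17.1). On simulated data for Syndecan-2+ against Syndecan-2- with 13997 genes, 72% of 1.5-fold, 95.5% of 2-fold and 100% of 4-fold changes were recovered, and with 31579 transcripts 31%, 89.5% and 100%. False calls numbered 7, 6 and 14 genes and 3, 9 and 13 transcripts at these sizes, and 0 with no change. The simulation drew whole reads with the same fixed spread between libraries for all features. It had no deviation shared by library number and no division of reads among transcripts. Some member transcripts varied more, such as Hlf-002 at 3.87 ± 3.57 CPM in Syndecan-2+ libraries, so recovery in these data can be lower.

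Libraries with the same number deviated together: the correlation of their deviations from the group means was 0.117 to 0.259 in 9 pairs, against -0.206 to 0.00483 in 18 pairs with different numbers. The pairing comes from the data, since the labels give only the number. Alternatives were other pseudocounts (0.1 and 5), no filter or at least 10 CPM, TMM rescaling, quantile normalization, the replicate block, robust eBayes, only the 6 libraries compared, and each library left out. Leaving out number 2 of all populations, and TMM rescaling with the replicate block, were added after seeing the data.

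The members and lists were chosen with earlier results of these data known. Genes named in the text are the members and their transcripts, genes of the lists, and genes among the 5 with the most similar pattern to each member. Some genes that this rule names are not reported here, and the family and reprogramming lists were counted and drawn without them. Transcript models and coding sequences come from GENCODE on GRCm38 and promoters from RefSeq on GRCm38.p6.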

Additional observations from a re-analysis of the deposited data

How the results depend on the processing

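The differences of Meis1, Hlf and Mllt3 between Syndecan-2+ and Syndecan-2- kept their direction and call in 20 of 20 alternatives, and that of Pbx3 in 19 of 19; at a minimum of 10 CPM Pbx3 was not tested. A pseudocount of 5 moved the log2 difference of Pbx3, the lowest gene, from 1.13 to 0.68 and one of 0.1 to 1.34; over Parent a pseudocount of 5 gave 0.38 in place of 0.60. Pbx3 over Parent was 0.55 (log2) and not called with number 2 of all populations left out, and ran from 0.52 to 0.72 without 1 library. Meis1 in Syndecan-2- against Parent ran from -0.38 to -0.28 without 1 library. The number of the 23 transcripts called between the sorted parts was 6 with number 2 left out and 5 to 11 without 1 library, and over Parent 2 to 4. Between Syndecan-2- and Parent the replicate block gave 1 in place of 0. Beside these and the calls given with their block values above, the replicate block changed no other call of the 4 genes or their transcripts. The difference in the share of Hlf-001 ran from -1.55 to 1.75 percentage points without 1 library, so its sign is not fixed. Parent lay at 43.2% for Mllt3 on the log2 scale, and higher than on the CPM scale for all 4 genes, since the scale itself moves the midpoint. For the other results the cause was not tested. The filter of 1 CPM left 4 of the 7 Pbx3 transcripts untested.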
